A study of Homo sapiens with 24 samples.

Results

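Acetylation of lysine 9 of histone H3 (H3K9ac) was examined at pairs of sites that lie close together in hTert-HME1 cells, mammary epithelium of human origin that telomerase has immortalised. Members were chosen by width and position alone, but only among sites that the authors had called changed between the groups of cells described below. They are sites of the smallest width in the authors' deposited H3K9ac table, 0.501 kb, called narrow sites here, whose nearest other narrow site on the chromosome lies at most 2 kb away from edge to edge. The rule found 394 sites among 1719 narrow sites (22.9%) and 2191 sites in all. They formed 214 neighbouring pairs in 180 runs, of which 154 runs held 2 sites, 20 held 3, 4 held 4 and 2 held 5, so pairs within the longer runs share sites.

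The study made chromatin immunoprecipitation sequencing libraries of formaldehyde-fixed, sonicated chromatin. H3K9ac was measured in 3 libraries of control cells (shControl in the table) and 3 libraries of cells carrying a short hairpin RNA against the histone acetyltransferase HAT1 (shHAT1). Rbap46, a histone chaperone also called RBBP7, was mapped in 2 libraries of untreated cells and compared with 2 input libraries of untreated cells. All groups were labelled as the same cell line. The titles give each H3K9ac library its own code, and the same codes recur in libraries of other antibodies. Rbap46 and input libraries are only numbered. The labels do not say whether the libraries of a group came from separate cultures or clones. The authors' p-values thus measure the spread between these libraries, which may be technical. Values are the authors' means per group on a log2 scale of normalized read concentration, so no spread between libraries can be given, and depth per library is unknown. The level of HAT1 in the hairpin cells was not analysed here.

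H3K9ac marks nucleosomes at active promoters and enhancers. At an active start site the stretch bound by the transcription machinery is depleted of nucleosomes, and acetylated nucleosomes flank it, so a single promoter often gives neighbouring summits of signal. HAT1 acts with Rbap46 on newly made histone H4 before it is placed on DNA, whereas H3K9ac is written by other enzymes.

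Most pairs were very close. The gap between edges had a median of 264.5 bp, with quartiles of 113 and 528.75 bp, and it was at most 500 bp in 157 of 214 pairs (73.4%). The shortest lay on chromosome 16, where the sites from 27214684 to 27215184 and from 27215184 to 27215684 shared 1 base. No wider H3K9ac site stood inside a gap, but gaps of at most 500 bp are too short to hold one. The histogram of gaps shows that the pairs thin out toward the 2-kb limit, with 22 of 214 beyond 1000 bp.

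**Figure D1:**
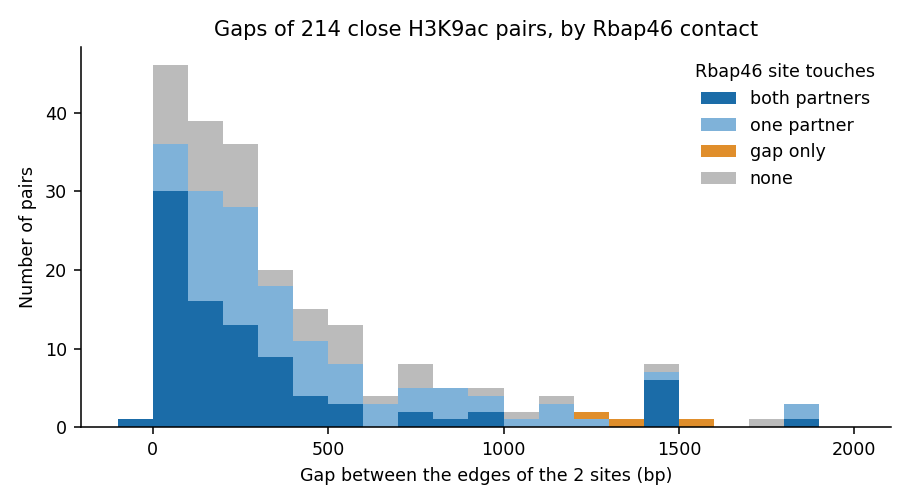
Number of pairs by the gap between the edges of the 2 sites in bp, with colours for what an Rbap46 site touches (both partners, 1 partner, only the gap, or nothing). Most pairs have a gap of at most 500 bp, and the 3 pairs touched only in the gap all have long gaps.

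On chromosome 15 the pair just inside the limit, with a gap of 1883 bp, had shControl levels of 8.68 and 8.40 and changes of -0.79 and -1.08 in the authors' deposited table. Just outside, on chromosome 10 with a gap of 2013 bp, the shControl levels were 8.97 and 9.05 and the changes -0.81 and -0.78. Changes here and below are the log2 level in shHAT1 minus that in shControl, so a negative value is a loss after HAT1 depletion.

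H3K9ac fell at 392 of the 394 paired sites and rose at 2, all at the false discovery rate (FDR) limit of 0.1 that the authors applied to the whole table. Losses made up 99.2% of all 2191 sites, so the direction is that of the table as a whole. In 213 of 214 pairs both partners were lower in shHAT1 cells, in 1 pair both were higher, and in 0 pairs did the partners go in opposite directions. The authors' table holds 18.2% of the 12048 sites or slightly more that they tested, as read from the rank relation of its p-values and FDR. Sites that did not pass were not used here, so a pair enters only when both partners passed.

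The losses at paired sites were somewhat deeper than at unpaired narrow sites. The median change was -0.89 over the 394 paired sites, with quartiles of -1.06 and -0.72, which is a 1.85-fold decrease. Over the 1325 unpaired narrow sites the median was -0.76, a 1.69-fold decrease, and over the 472 wider sites it was -0.745. At least a 2-fold loss was found at 127 paired sites (32.2%), against 18.3% of all sites of the table and 218 of 1325 unpaired sites (16.5%). An FDR under 0.05 was reached by 189 paired sites (48.0%), against 36.3% of all sites of the table and 37.1% of its narrow sites. In 66 pairs both partners reached it, in 79 pairs 1 did and in 69 pairs neither. At an FDR under 0.01 the count was 19 of 394 (4.82%), against 2.01% of the table. A site counts as paired only if its neighbour's change also passed the authors' limit. An unpaired site may have a close neighbour that did not pass. The part of this selection in these differences was not tested.

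Starting levels of paired and unpaired sites were close. The paired sites' median shControl level was 9.13 on the log2 scale, close to the 9.19 of unpaired sites. The narrow sites were then divided into 4 classes of nearly equal size by shControl level, class 1 being the lowest. The median change of paired sites was -1.02 in class 1, against -0.89 for unpaired sites. In classes 2 and 3 the paired medians were -0.93 and -0.86, against -0.79 and -0.70. In class 4 the medians were -0.73 and -0.69, and the share of sites at an FDR under 0.05 was lower for paired than for unpaired sites, at 44.7% and 47.4%. These differences were not tested, because sites are not replicates and values per library were not used.

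**Figure D2:**
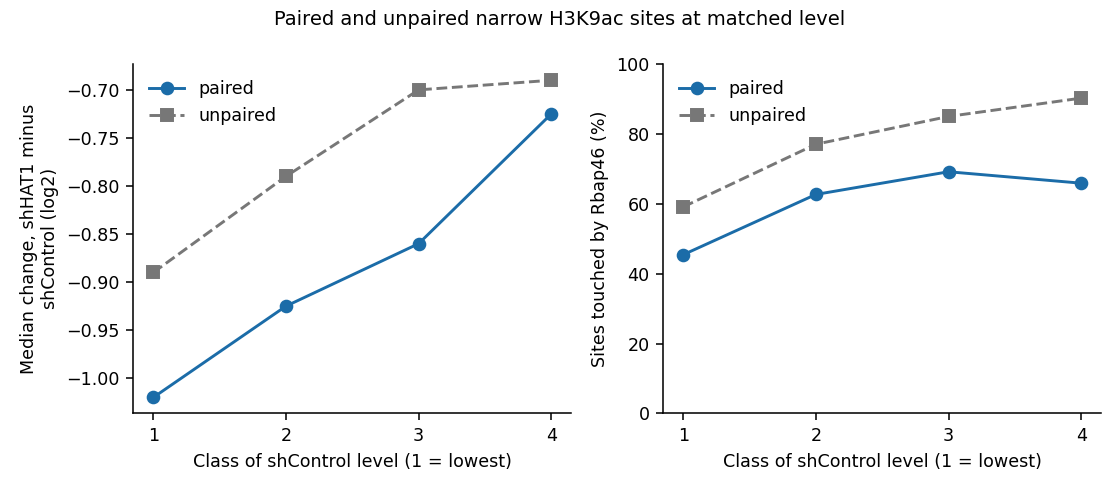
Left, median H3K9ac change (shHAT1 minus shControl, log2) and right, percent of sites touched by an Rbap46 site, by class of shControl level (1 lowest, 4 highest), for paired sites (circles) and unpaired narrow sites (squares). Paired medians lie below unpaired ones in every class, by 0.04 to 0.16, and the share touched is lower for paired sites throughout.

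Partners of a pair often differed in level. The median absolute difference of the shControl level between partners was 0.63 on the log2 scale, and it was 1 or more, at least 2-fold, in 53 of 214 pairs (24.8%). Neighbouring sites more than 2 kb apart differed by a median of 0.68, but those from 2 to 10 kb apart differed by 0.61, and pairs with a gap of 500 to 1000 bp by 0.73. The difference in level thus did not grow steadily with distance. Neither side was favoured, with the left partner higher in 114 pairs, the right in 97 and no difference in 3.

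The weaker partner usually lost more. Among the 211 pairs with unequal shControl levels, the partner with the lower level had the deeper loss in 135 (64.0%) and the partner with the higher level in 71. Where the levels differed by 1 or more, this held in 46 of 53 pairs, with a median change of -1.02 at the weaker and -0.70 at the stronger partner. The same relation runs through the table. All narrow sites at or below the median level had a median change of -0.87, against -0.72 above it. The smallest absolute change that any narrow site shows also depends on level, at 0.54 in class 1 and 0.40 in class 4. How far that limit sets the relation was not tested.

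The size of the loss was partly shared between partners. Over the 214 pairs the changes of left and right partner had a Pearson r of 0.47 and a Spearman rho of 0.30. Without the pair that rose, r was 0.33 and rho 0.29. With that pair kept but chromosome 6 from 26 to 28 Mb left out, r was 0.44 and rho 0.22 over 198 pairs. Part of the rank correlation thus came from that stretch, and the values by gap below include it. In pairs with a gap of at most 200 bp r was 0.50 (rho 0.47, 86 pairs), between 200 and 500 bp it was 0.28 (rho 0.25, 71 pairs), and between 500 and 1000 bp it was 0.09 (rho 0.03, 35 pairs). Beyond 1000 bp the r of 0.88 over 22 pairs rested on the pair that rose, and was 0.23 without it. Among neighbours further apart r was 0.17 from 2 to 10 kb (rho 0.18, 46 neighbours), 0.19 from 10 to 100 kb (rho 0.17, 241 neighbours) and 0.04 beyond (rho 0.05, 1195 neighbours), so r did not decline steadily with distance. Over all 1482 neighbours beyond 2 kb it was 0.07. All points come from the same 6 libraries, and sites a few bases apart can be covered by the same DNA fragments, the part of which was not tested. The typical disagreement was not smaller, with a median absolute difference in change of 0.20 within pairs and 0.18 between the distant neighbours. From the shortest to the longest gap class of pairs it was 0.17, 0.21, 0.27 and 0.18. Changes also spread more widely over paired sites (quartiles -1.06 and -0.72) than over unpaired ones (-0.91 and -0.64). The absolute differences therefore cannot decide whether partners agree better than distant neighbours. A difference of 0.5 or more was seen in 15 pairs (7.01%) against 146 of the distant neighbours (9.85%).

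**Figure D3:**
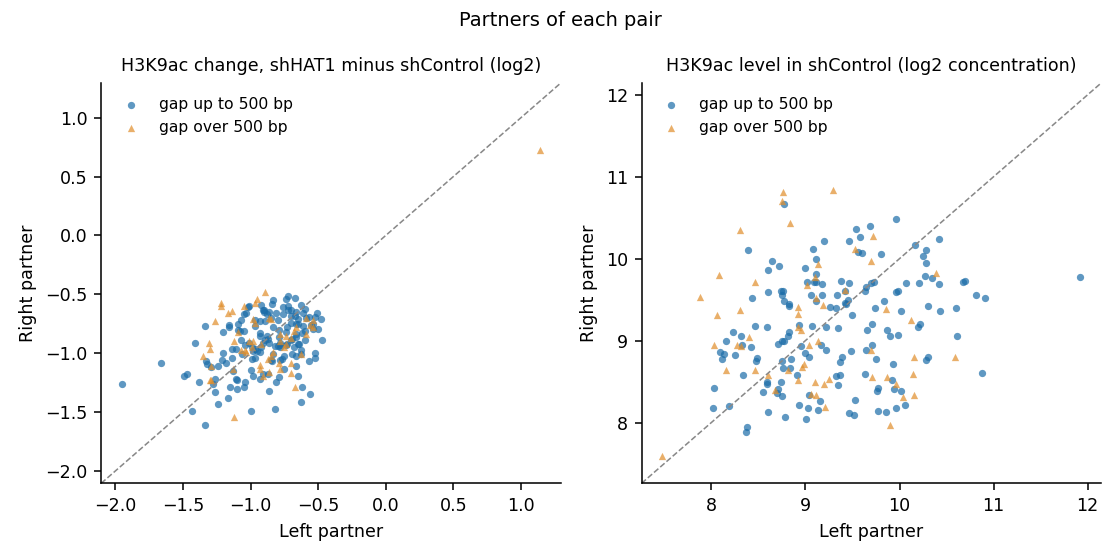
Each point is 1 of the 214 pairs, with the left partner on the horizontal and the right partner on the vertical axis, for the H3K9ac change (left panel, log2) and the shControl level (right panel, log2 concentration); circles are gaps up to 500 bp, triangles longer ones, and the dashed line marks equal values. All pairs but 1 lie where both changes are negative, and levels scatter far from the line.

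The 3 pairs with the deepest mean loss lay on chromosomes 9, 7 and 5. On chromosome 9 the sites from 137029554 to 137030054 and from 137030068 to 137030568 both stood at 9.70 in shControl cells and fell to 7.75 and 8.44 in shHAT1 cells (FDR 0.0557 and 0.036 in the authors' deposited table). The left site of this pair thus lost 1.95 and the right 1.26 on the log2 scale across a gap of 13 bp. A single Rbap46 site from 137029709 to 137030209 touched both, with an enrichment of 1.11 on the log2 scale (FDR 1.85e-08, authors' deposited table). On chromosome 7 the sites from 872012 to 872512 and from 872538 to 873038 fell from 8.93 to 7.59 and from 8.21 to 6.60 (FDR 0.0374 and 0.0398 in the authors' deposited table). Neither of the sites on chromosome 7 was touched by an Rbap46 site, the nearest lying 0.201 kb away. The pair on chromosome 5 belongs to a run of 5 sites described with the runs.

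The smallest p-value of any pair belonged to chromosome 12. There the site from 120729570 to 120730070 fell from 10.15 to 9.03 and its partner from 120730915 to 120731415 fell from 8.80 to 7.26, with FDR of 3.85e-05 and 0.000263 in the authors' deposited table. The weaker partner had the larger loss, -1.54 against -1.12. An Rbap46 site from 120729575 to 120730075 lay almost exactly over the stronger partner, with a log2 fold over input of 1.06, and none touched the weaker one.

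A single pair rose. It lay on chromosome 6, where the site from 114179128 to 114179628 went from 7.48 to 8.62 and the site from 114180669 to 114181169 from 7.59 to 8.32 (FDR 0.0341 and 0.0714 in the authors' deposited table). Its partners also had the lowest mean shControl level of all pairs. No Rbap46 site touched either partner or the gap, and the nearest was 0.672 kb away. In all, 17 of 2191 sites rose (0.776%), and 2 of them are these partners.

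At the other end of the scale, the highest mean shControl level was found on chromosome 6. The site from 74230350 to 74230850 had a level of 11.92 and fell to 11.00, and the site from 74231160 to 74231660 had 9.78 and fell to 9.19 (FDR 0.0398 and 0.0578 in the authors' deposited table). The partners thus differed by more than 4-fold in control cells, and here the stronger one lost more. An Rbap46 site centred in the gap touched both. The next 2 pairs by level, both on chromosome 1, lost less. The sites from 95006705 and 95007644 had levels of 10.42 and 10.24 and changes of -0.65 and -0.75, and those from 62901551 and 62902329 had levels of 9.96 and 10.48 and changes of -0.48 and -0.71 in the authors' deposited table.

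The largest difference in level lay on chromosome 17, between the site from 7476159 to 7476659 at 10.88 and the site from 7477095 to 7477595 at 8.61 in shControl cells. Both fell, by 0.68 and 0.95 on the log2 scale, in the authors' deposited table. On chromosome 12 the site from 57080256 stood at 8.76 and its partner from 57081496 at 10.81, and again the weaker one had the deeper change, -1.05 against -0.60. The largest difference in change was found on chromosome 16, where the site from 11836181 to 11836681 changed by -0.56 and the site from 11836786 to 11837286 by -1.35, with shControl levels of 9.96 and 8.18 in the authors' deposited table. An Rbap46 site touched both of these partners.

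Rbap46 sites above input at an FDR under 0.05, which are 99.8% of the sites in the authors' Rbap46 table, were then placed on the pairs. Of 214 pairs, 167 (78.0%, exact binomial 95% interval 71.9 to 83.4%, counting error only) had an Rbap46 site over a partner or in the gap. This is the same share as for unpaired narrow sites, of which 1033 of 1325 (78.0%) were touched, although a pair covers more sequence than a single site. Counted per site, 239 of 394 paired sites (60.7%) were touched, below the 76.1% of all sites of the table. The share was lower for paired than for unpaired sites in each class of shControl level, with 45.5% against 59.2% in class 1 and 66.0% against 90.3% in class 4. With an Rbap46 log2 fold of at least 1 the shares per site were 38.6% and 57.0%. Rbap46 was mapped in untreated cells and H3K9ac in shControl and shHAT1 cells, and the part of that difference in these shares was not tested.

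Contact of Rbap46 with both partners or with 1 varied with the gap. Both partners were touched in 88 pairs (41.1%), the left one alone in 35, the right one alone in 41, and only the gap in 3. In 56 of the 88 pairs a single Rbap46 site reached both partners, and in the other 32 separate sites did. Contact with both partners was found in 47 of 86 pairs with a gap of at most 200 bp, in 26 of 71 between 200 and 500 bp, in 8 of 35 between 500 and 1000 bp and in 7 of 22 beyond. Of the pairs with any Rbap46 site, both partners were touched in 47 of 67 for gaps of at most 200 bp, and in 26 of 57, 8 of 25 and 7 of 18 in the longer classes. A single Rbap46 site can reach both partners only across a gap shorter than itself.

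The position of the Rbap46 centres was compared with the partners and their surroundings. Gaps of at most 200 bp held 1.29 centres per kb, and gaps of 200 to 500 bp held 0.884. The partners themselves held 0.664 per kb and unpaired sites 1.09. In the first 250 bp outside a run the density was 0.20 per kb, against 0.491 in the same flank of unpaired sites. Longer gaps held 0.322 per kb from 500 to 1000 bp and 0.291 beyond. Only gaps of at most 200 bp were above the density of unpaired sites, and that value rests on 10 centres in 7.76 kb; gaps of 200 to 500 bp held 20 centres in 22.6 kb.

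**Figure D4:**
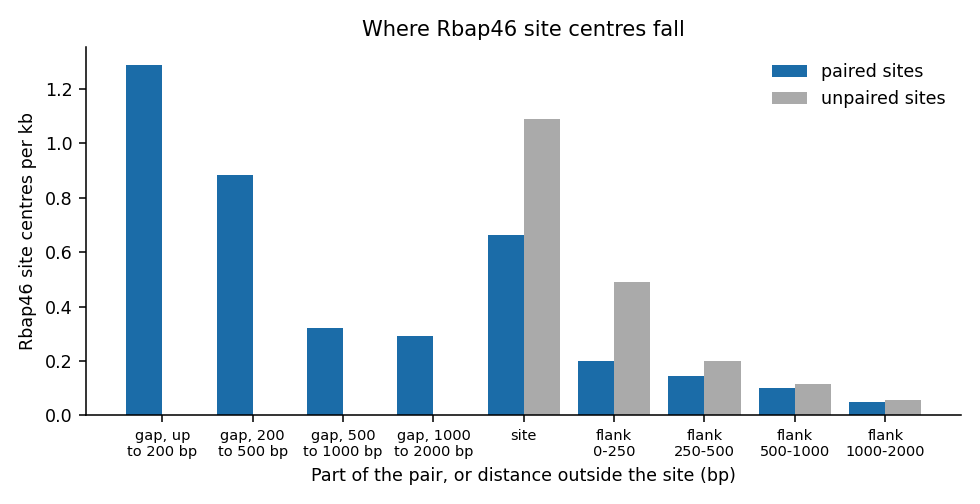
Rbap46 site centres per kb of sequence in gaps by length, inside the sites, and in flanks by distance in bp outside the run or the unpaired site; blue bars are paired and grey bars unpaired narrow sites. Gaps up to 200 bp have 1.29 centres per kb, and the outer flank up to 250 bp has 0.20 for pairs and 0.491 for unpaired sites.

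Each contact of an Rbap46 site with a partner was also placed relative to that partner's centre. Over all 259 contacts the Rbap46 centre lay toward the other partner in 183 (70.7%), with a median displacement of 161 bp. A site that touches both partners counts at each of them and lies toward the other by its position. In the runs of 2 sites, 50 Rbap46 sites touched both partners. The 103 that touched 1 partner had their centres toward the other in 51 cases and away from it in 51, but leaving out sites that reach both removes those that lie furthest toward the other. Neither count shows whether Rbap46 leans toward the partner.

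An Rbap46 site lay wholly inside the gap in 7 of 214 pairs (3.27%), and only the 57 pairs with a gap of at least 0.501 kb could hold one of that width. The pair with the longest gap, on chromosome 15 from 75743557 to 75746441, held an Rbap46 site from 75744505 to 75745005 whose enrichment over input was 0.61 on the log2 scale (authors' deposited table). On chromosome X an Rbap46 site from 123095472 to 123095972 with a log2 fold of 1.32 was the only one between sites at 9.06 and 8.35 in shControl cells, which changed by -0.75 and -0.95 in the authors' deposited table. The other 2 pairs touched in the gap alone were on chromosomes 1 and 10, with log2 folds of 1.03 and 0.55.

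The 196 distinct Rbap46 sites that touched a pair or its gap had a median log2 fold of 1.10, against 1.2 for the 1049 sites that touched only unpaired narrow sites and 1.05 for all 30418 sites above input. A log2 fold of at least 1.5 was found for 28 of the 196 (14.3%), against 9.91% of all Rbap46 sites and 247 of the 1049 (23.5%). The strongest lay on chromosome 16 from 1660569 to 1661069, where the authors' deposited table gives an Rbap46 level of 8.68, an input level of 6.38 and an enrichment of 2.31. Its centre fell 15 bp from the midpoint of a pair separated by 75 bp, whose sites from 1660296 and 1660872 changed by -0.62 and -1.29. The next 2 were at pairs on chromosomes 1 and 2, with log2 folds of 2.23 and 2.21.

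The loss was similar in size at pairs with and without Rbap46. The 167 pairs with an Rbap46 site had a median mean change of -0.89 and a median mean shControl level of 9.22. For the 47 pairs without one the values were -0.92 and 9.04. In the 76 pairs where 1 partner alone was touched, the touched partner had a median change of -0.88 and a level of 9.19, against -0.94 and 8.98 for the untouched one, and the touched partner lost less in 44 of 76. These differences were not tested.

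Pairs were frequent in the stretch of chromosome 6 from 26 to 28 Mb, which is known to hold the large cluster of replication-dependent histone genes. Of the 39 narrow sites there, 27 (69.2%) were paired, against 22.9% over the genome, and they formed 16 pairs. All 27 fell, by between 0.83 and 1.35 on the log2 scale, with a median change of -1.14. At least a 2-fold loss was found at 23 of them (85.2%), against 18.3% of the table. In 13 of the 16 pairs both partners lost that much, against 36 of all 214 pairs (16.8%). Partners were alike in change, with a median absolute difference of 0.10 and at most 0.33. Changes lay close together over the whole stretch, with quartiles of -1.26 and -1.04 for paired and -1.095 and -0.99 for unpaired sites. Whether partners were more alike than other sites there was not tested. The shControl levels of partners there differed by a median of 0.58, near the 0.63 of all pairs. The 12 unpaired sites of the same stretch had a median change of -1.07, so the loss there was near that of the paired sites.

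Without this stretch the 367 other paired sites had a median change of -0.86, against -0.76 for the 1313 unpaired sites outside it. The share of them with at least a 2-fold loss was 28.3%. An Rbap46 site touched a partner in 13 of the 16 pairs of the stretch, and both partners in 9. These shares were 81.3% (exact binomial 95% interval 54.4 to 96.0%) and 56.3% (29.9 to 80.2%). Over all 214 pairs, which include these 16, they were 78.0% and 41.1%. The intervals treat pairs as independent, whereas the 16 pairs lie in 11 runs and some share sites. The differences were not tested. The highest Rbap46 enrichment at these pairs was 1.38 on the log2 scale, per the authors' deposited table. Which genes lie at the sites was not analysed here.

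All sites in the runs of 4 or 5 fell. One run of 5 sites lay on chromosome 5 from 90675520 to 90679090. Their shControl levels were 8.60, 9.86, 8.13, 8.84 and 8.66 in order of position, and their shHAT1 levels 7.79, 8.62, 6.70, 7.35 and 7.47 in the authors' deposited table. The loss was smallest at the first site, -0.81, and largest at the fourth, -1.49, while the peak of the level was at the second. An Rbap46 site from 90675831 to 90676331, with a log2 fold of 1.18, touched the first site and the gap after it. None touched the other 4 sites, but another Rbap46 site lay 0.03 kb from the last pair of the run.

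The other run of 5, on chromosome 22 from 46474290 to 46477679, was flat. Its shControl levels lay between 9.60 and 10.07 and its changes between -1.05 and -0.66 in the authors' deposited table. No Rbap46 site touched it, and the nearest to its last pair was 3.817 kb away. A run of 4 on chromosome 1 from 156716475 to 156722155 was as even in level, between 8.95 and 9.13, but its last site changed by only -0.54 in the authors' deposited table while the others changed by -0.83, -0.99 and -0.95.

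On chromosome 19 the 4 sites from 11199638 to 11202606 stood at 8.77, 10.67, 9.71 and 8.95 in shControl cells in the authors' deposited table. Their changes were -1.07, -0.72, -0.63 and -1.41, so the outer, weaker sites lost most. On chromosome 17 the 4 sites from 8057228 to 8060529 had changes of -0.93, -1.22, -0.57 and -1.07, with the smallest loss at the site of the highest level, 9.77. In the histone stretch of chromosome 6 the 4 sites from 26195652 to 26199556 had shControl levels of 8.03, 8.42, 8.92 and 9.17 from left to right, and their changes were -1.26, -1.33, -1.07 and -0.97 in the authors' deposited table.

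**Figure D5:**
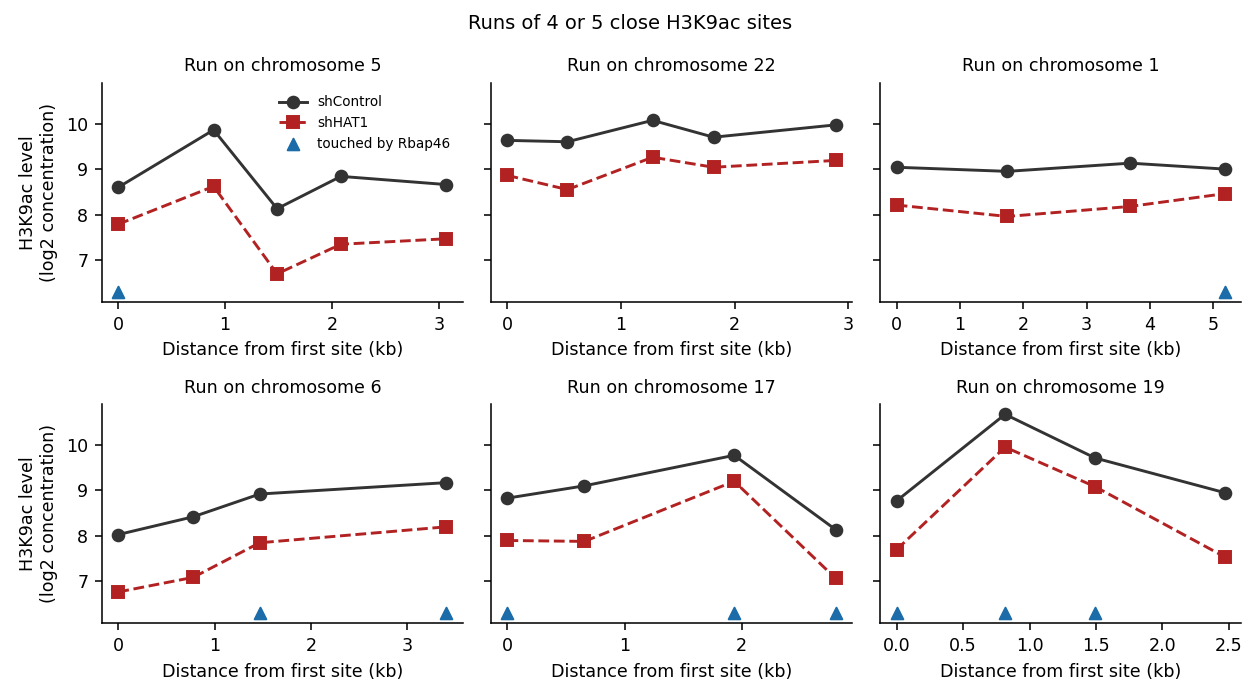
H3K9ac level (log2 concentration) in shControl (circles) and shHAT1 cells (squares) at each site of the 6 runs of 4 or 5 sites, against the distance in kb from the first site; triangles mark sites touched by an Rbap46 site. The shHAT1 line lies below the shControl line at every site, and no site of the chromosome 22 run is touched by Rbap46.

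Over all runs of 3 or more, the 34 inner sites had a median change of -1.02 and the 52 outer sites -0.93, against -0.86 for the 308 sites of runs of 2. The inner sites were touched by Rbap46 in 13 of 34 cases (38.2%), the outer ones in 27 of 52 (51.9%) and the sites of runs of 2 in 199 of 308 (64.6%). Sites of the histone stretch of chromosome 6 were not taken out of these values, and the differences were not tested.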

How the data were processed

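The authors deposited 2 tables laid out as DiffBind reports per the file headers, H3K9ac in shControl against shHAT1 cells and Rbap46 against input. The submitters' processing notes name genome build hg19 and, without roles, cutadapt, Bowtie2, SAMtools, Picard, MACS2 and DiffBind, among others. The scaling between libraries is not given in the sources used here. Levels and folds in the deposited tables are log2 values, means over a group's libraries. The p-value and FDR per site are the authors' deposited ones. H3K9ac sites end at an FDR of 0.1.

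Changes were computed as the shHAT1 minus the shControl level and matched the deposited fold, sign reversed, within 0.01. Pairs were found by position, and the search was tested on simulated data. An Rbap46 site touched a site if they shared 1 bp. Python 3.11, pandas 2.3.3, numpy 2.4.6, scipy 1.17.1 and matplotlib 3.10.9 were used. Members and lists were chosen with earlier results of these data known. Pairs named are the extremes of loss, level, partner difference, p-value, gap and Rbap46 fold, every pair that rose, those with an Rbap46 site in the gap, and every run of 4 or more. No test over sites was made. No annotation or sequence of build hg19 was used, so sites carry no gene names. Libraries of other antibodies were left out, as not analysed here. Intervals cover counting error only and treat pairs as independent, although pairs within the longer runs share sites.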

Additional observations from a re-analysis of the deposited data

How the results depend on the processing

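Of 48 planned values recomputed under other settings, 37 stayed within the 95% interval or, for counts, within 1.5 times. With the values added after seeing the data, 82 of 102 did. No paired analysis was possible because each group comes as 1 mean per site, and leaving out a library was not run for that reason. None of the alternatives run reversed the sign of the median change, or of the paired minus unpaired difference of -0.13. The sign of the median change could hardly reverse under any setting, because 99.2% of all 2191 sites fell.

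The paired sites numbered 129 with H3K9ac at an FDR under 0.05 and 194 above the 25th percentile of concentration, which leave fewer sites by construction. Under these limits the median change was -1.05 and -0.82, and pairs with both partners lower made up 100% in each. That share was also 100% with a gap limit of 1 kb and, added after seeing the data, without the pair that rose. With 1 kb the share with an Rbap46 site inside the gap was 0%. The median difference in shControl level between partners was 0.49 above the 25th percentile. The paired minus unpaired difference was -0.17 at an FDR under 0.05. The share of pairs with Rbap46 was 54.2% at a log2 fold of at least 1 and 67.8% with an overlap of 250 bp. Paired sites were touched in 38.6% and 34.3% of cases under these rules, and unpaired sites in 57.0% and 55.4%. Unpaired sites were touched in 80.3% of cases with partners of any width, 83.8% above the 25th percentile and 73.7% with Rbap46 at an FDR under 0.01. The paired minus unpaired difference and the shares per site were added to these alternatives after seeing the data. The cause was not tested. Depth per library is unknown.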

Other observations

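The share of narrow sites that were paired varied between chromosomes. It ran from 0% on chromosome 21 (0 of 12 sites) to 55.6% on chromosome 13 (5 of 9), both with few sites. Among the others it was highest on chromosome 6 at 43.0% (52 of 121), followed by chromosome 22 at 38.5% (15 of 39) and chromosome 14 at 31.6% (6 of 19), and lowest on chromosome X at 6.90% (2 of 29). In the first 5 Mb of chromosome 16, 22 of 54 sites were paired, and their median change of -0.83 was near the -0.78 of the 32 unpaired sites there.

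The 47 pairs without an Rbap46 site were not all remote from one. The nearest Rbap46 site lay within 2 kb in 19 of them and beyond 100 kb in 10, with a median of 3.817 kb.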
